A study of Mus musculus with 2 samples.

Results

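Myostatin, activins and follistatin form a signalling system that limits the size of skeletal muscle, and 10 of its genes were followed in gastrocnemius, a calf muscle rich in fast fibres. They were taken as a fixed list of symbols from the 55536 genes of the deposited gene tables, and all 10 were found. By role they are 4 ligands (Mstn, Gdf11, Inhba and Inhbb), 3 follistatin-domain proteins of the extracellular space, called binding proteins here (Fst, Fstl3 and Fstl1), and 3 receptors (Acvr2a, Acvr2b and Acvr1b). Total RNA was sequenced with ERCC spike-ins, synthetic RNAs added in known amounts, from 300 ng of RNA per library. The 2 libraries make up 1 group: muscle of female B6CASTF1/J mice, which are F1 hybrids of C57BL/6J and CAST/EiJ, at 14 days after birth, with no treatment named. The series holds no second strain, age, sex or treatment, so levels are described and the only comparison is of replicate 2 with replicate 1. The labels call the libraries biological replicates. The library descriptions of both name 3 females, while the tissue description of replicate 2 names a female in the singular, so whether each library is 1 animal or a pool is not settled by the labels.

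The ligands are secreted dimers of the TGF-beta family, cut from a precursor by furin-like proteases. A ligand binds a type II receptor (the products of Acvr2a and Acvr2b), which recruits and phosphorylates a type I receptor such as the product of Acvr1b, and the signal passes to SMAD2 and SMAD3. Follistatin and the product of Fstl3 wrap around myostatin, GDF11 and activins and keep them from their receptors. Loss of Mstn, which is made mainly by muscle fibres, gives the enlarged muscles known from mice, cattle and dogs.

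The tissue label was checked against 8 genes of mature muscle fibres, among them Acta1, Ckm and Myh4. Their summed level was 105401 TPM in replicate 1 and 110179 TPM in replicate 2, where TPM is a transcript's share of all transcript molecules, after allowing for length. All 8 stood at 1 TPM or more in both libraries, while 5 keratinocyte markers, which label skin, summed to 2.70 and 2.84 TPM. Of these Krt5 and Krt14 had 0 counts in both libraries, and Krt10 held nearly all of the sum, at 2.67 and 2.79 TPM from 39 and 48 counts. Gene counts totalled 35591969 and 42105815, and 15734 genes reached the summed count of 20 set for testing.

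The products of Mstn and Gdf11 are close relatives, so it was checked whether reads of these genes could be shared with other genes. No 31-base word of Mstn, and 0.0248% of those of Gdf11, occurred in another gene in the same direction. Matches to the opposite strand were not counted.

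Fst is printed because its transcripts end in ways that give proteins with different behaviour. The short form is known as the one held at cell surfaces by heparan sulphate, and the long form, which carries an acidic tail, is known as the circulating one. The lines, from GENCODE M21 transcripts on mm10, give the end of the coding sequence on the - strand of chromosome 13, with the bases of exon 6 in capitals. Exon 6 of Fst-202 spans chr13:114452290-114453805, and its coding part is the last 2 bases of the stop codon. Exon 6 begins at chr13:114453505, further downstream, in Fst-201 and in Fst-205, which have the same coding end.
Fst-202: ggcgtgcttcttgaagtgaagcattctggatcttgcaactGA
Fst-201: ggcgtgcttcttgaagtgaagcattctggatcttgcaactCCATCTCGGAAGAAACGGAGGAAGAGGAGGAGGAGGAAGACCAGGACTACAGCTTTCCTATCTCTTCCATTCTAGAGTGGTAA
The coding part has 317 codons in Fst-202, 344 in Fst-201 and 343 in Fst-205, stop codon not counted. Fst-201 and Fst-205 differ by 3 bases at the start of exon 5, shown in capitals where Fst-201 keeps them.
Fst-201: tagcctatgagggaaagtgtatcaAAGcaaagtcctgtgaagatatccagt
Fst-205: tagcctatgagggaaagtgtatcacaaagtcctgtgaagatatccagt

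Acvr2b is printed because its 3 annotated coding transcripts differ inside the coding sequence. Acvr2b-202 has 536 codons and both of the blocks shown in capitals, each with 20 flanking bases on either side. Acvr2b-201 (528 codons) lacks the 24-base block at chr9:119428201-119428224, and Acvr2b-205 (512 codons) lacks the 72-base block at chr9:119428353-119428424. The 72-base block begins with GT and ends with AG, the letters usual at the ends of an intron, and Acvr2b-205 treats it as an intron.
Acvr2b-202, 24-base block: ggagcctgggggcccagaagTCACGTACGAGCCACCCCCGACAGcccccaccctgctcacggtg
Acvr2b-202, 72-base block: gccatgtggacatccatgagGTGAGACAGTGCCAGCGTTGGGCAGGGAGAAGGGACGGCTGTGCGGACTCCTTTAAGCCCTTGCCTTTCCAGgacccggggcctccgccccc

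Among the ligands, Mstn was by far the most abundant transcript. Mstn (ENSMUSG00000026100.6, chromosome 1, 53061640 to 53068079, + strand) stood at 16.1 TPM in replicate 1 and 17.8 TPM in replicate 2, a mean of 16.9 ± 1.18 TPM (SD, n = 2), from 1179 and 1504 expected counts. The deposited intervals of the libraries, 14.9 to 16.7 and 16.6 to 18.3 TPM, overlapped. Its mean lay at percentile 71.5 of the 11017 protein-coding genes that reached 1 TPM in both libraries, whose median was 8.40 TPM. Mstn was thus above the typical detected gene in both libraries, and far below the structural genes of the fibre.

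Gdf11 (ENSMUSG00000025352.6, chromosome 10, 128882295 to 128891718, - strand) encodes a close relative of myostatin that patterns the embryonic axis. It stood at 2.25 and 3.48 TPM (2.87 ± 0.870 TPM, SD, n = 2), from 251 and 448 counts. Mstn was higher than Gdf11 by 7.15-fold in replicate 1 and 5.10-fold in replicate 2, a mean log2 difference of 2.59 ± 0.34 (SD, n = 2). The deposited intervals of the pair stayed apart in both libraries.

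The activin beta subunits had the lowest mean TPM of the 10 genes. Inhba, at 0.845 TPM, was close to Fstl3 at 0.92 TPM, and Inhbb was lower, at 0.145 TPM. Inhba (ENSMUSG00000041324.14, chromosome 13, 16011851 to 16031621, + strand), which encodes the subunit of activin A, stood at 0.45 and 1.24 TPM from 49 and 127 counts. Inhbb (ENSMUSG00000037035.5, chromosome 1, 119415465 to 119422248, - strand), which encodes the subunit of activin B, stood at 0.21 and 0.08 TPM from 25 and 11 counts. They are the members with fewest counts beside Fstl3, and they moved in opposite directions between the libraries. Their intervals overlapped in replicate 1 and stayed apart in replicate 2, so Inhba, the higher of the pair in both libraries, was set apart from Inhbb in replicate 2 only. Mstn was higher than Inhba by 35.7-fold and 14.3-fold, and Gdf11 was higher than Inhba by 5.0-fold and 2.81-fold, with intervals apart in both libraries.

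Mstn made up 84.7% and 78.7% of the summed TPM of the 4 ligands (81.7 ± 4.22%, SD, n = 2). Gdf11 held 11.8% and 15.4%, and both activin subunits together held 3.48% and 5.85%. The order Mstn, Gdf11, Inhba held in both libraries. These are shares of RNA, and the mature ligands were not measured.

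**Figure D1:**
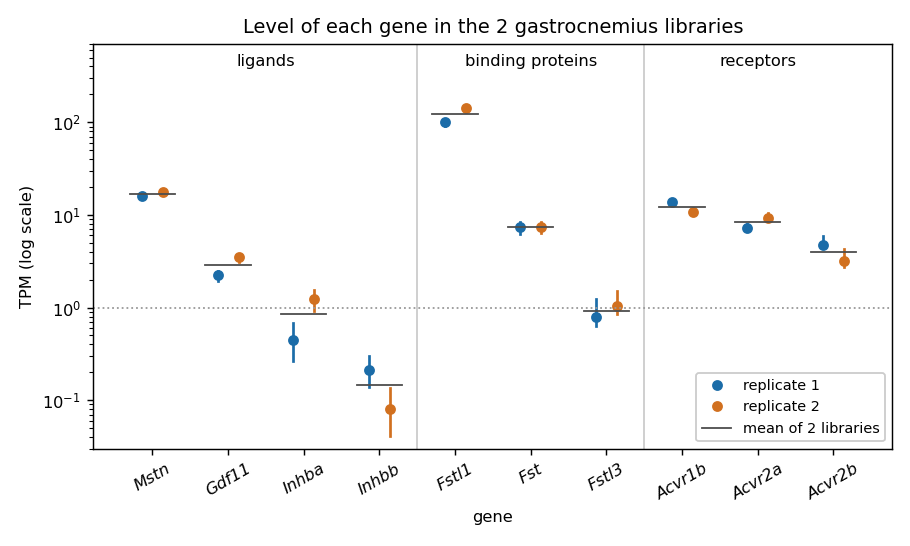
TPM on a log axis for the 10 genes by role, with replicate 1 in blue, replicate 2 in orange, the deposited interval as a vertical line, the mean of the libraries as a horizontal bar and 1 TPM dotted. Mstn leads the ligands at 16.1 and 17.8 TPM, Fstl1 leads all genes at 102 and 141 TPM, and Inhba, Inhbb and Fstl3 lie at or under the dotted line in at least 1 library.

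Of the binding proteins, Fst (ENSMUSG00000021765.9, chromosome 13, 114452290 to 114458951, - strand), which encodes follistatin, stood at 7.41 and 7.43 TPM (7.42 ± 0.014 TPM, SD, n = 2) from 331 and 450 counts. It was the member whose TPM differed least between the libraries. Its effective length, by which TPM divides, was 1587 bases in replicate 1 and 1863 bases in replicate 2. In the scaled counts compared below Mstn differed less, with a log2 ratio of -0.03 against 0.06 for Fst. Fst was lower than Mstn in both libraries: Mstn stood at 2.17-fold and 2.39-fold the level of its inhibitor, with intervals apart in both. Fstl3 (ENSMUSG00000020325.10, chromosome 10, 79777272 to 79782630, + strand), a smaller antagonist of activins and myostatin, stood at 0.79 and 1.05 TPM from 41 and 58 counts. Fst exceeded Fstl3 by 9.38-fold and 7.08-fold. Fst and Fstl3 together came to 43.2% and 37.6% of the summed TPM of the 4 ligands.

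Fstl1 (ENSMUSG00000022816.11, chromosome 16, 37776873 to 37836514, + strand) was the most abundant of the 10 genes. It encodes a secreted glycoprotein with a follistatin-like domain that mesenchymal cells of many tissues make. It stood at 102 and 141 TPM (122 ± 28.1 TPM, SD, n = 2) from 9605 and 16475 counts, at percentile 95.8 of detected coding genes. The 3 binding proteins are grouped by their follistatin domain, and of them only Fst and Fstl3 are described above as ligand inhibitors. Fstl1 held 92.5% and 94.3% of the TPM of this group and exceeded Fst by 13.7-fold and 19.0-fold. Of its 31-base words, 6.66% occurred in another gene in the same direction, against at most 0.634% for the other 9 genes. Matches to the opposite strand were not counted. That leaves out the overlaps of Acvr2a with Orc4 and of Fstl3 with Prss57, which are described below. The deposited posterior SD of the count was 0 for all 10 genes in both libraries.

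All 3 receptors were detected. Acvr1b (ENSMUSG00000000532.11, chromosome 15, 101174067 to 101213684, + strand), which encodes a type I receptor for activins and myostatin, stood at 13.7 and 10.6 TPM (12.2 ± 2.21 TPM, SD, n = 2) from 1669 and 1491 counts. Acvr2a (ENSMUSG00000052155.5, chromosome 2, 48814109 to 48903269, + strand) stood at 7.29 and 9.33 TPM (8.31 ± 1.44 TPM, SD, n = 2) from 1146 and 1694 counts. Acvr2b (ENSMUSG00000061393.14, chromosome 9, 119402118 to 119434995, + strand), whose product is the type II receptor that binds myostatin most tightly, stood at 4.75 and 3.16 TPM (3.96 ± 1.12 TPM, SD, n = 2) from 349 and 246 counts. The 3 genes span a narrow range beside the ligands, whose highest and lowest members lie far apart in the plot of levels by role.

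Acvr2a exceeded Acvr2b by 1.53-fold in replicate 1 and 2.95-fold in replicate 2, with intervals apart in both libraries. Acvr2a held 60.5% and 74.7% of the TPM of the type II pair, so the size of its lead varied between the libraries. Exons of Acvr2a share 446 bases with exons of Orc4 on the opposite strand, which had 410 and 468 counts, and whether the counting used strand is not given in the sources used here. Acvr1b was compared with the other type I receptors of the SMAD2 and SMAD3 branch. It exceeded Tgfbr1, the TGF-beta receptor, by 1.47-fold and 1.17-fold, and Acvr1c, which serves nodal and activin B, by 41.6-fold and 23.1-fold. The lead over Tgfbr1 was small: its mean log2 difference was 0.39 in the gene tables and 0.19 in the second set of transcript tables, which the authors made directly from the reads and which is called the direct quantification.

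By mean TPM the order was Fstl1, Mstn, Acvr1b, Acvr2a, Fst, Acvr2b, Gdf11, Fstl3, Inhba and Inhbb. Neighbours in that order were separated by non-overlapping deposited intervals in both libraries for Fstl1 over Mstn, Mstn over Acvr1b, Fst over Acvr2b and Gdf11 over Fstl3. Acvr1b over Acvr2a and Acvr2b over Gdf11 were separated in replicate 1 only, and Acvr2a over Fst and Inhba over Inhbb in replicate 2 only. Fstl3 and Inhba were separated in neither library. Of 11 pairs of genes compared, 10 had intervals apart and the same order in both libraries, and Inhba with Inhbb was the exception. In all, 7 of the 10 genes stood at 1 TPM or more in both libraries, and Fstl3, Inhba and Inhbb did not. Among all 22028 protein-coding genes, 11017 did.

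The libraries were then compared gene by gene, with counts scaled by TMM, a scaling that centres most genes on no difference. A two-sided exact binomial test was used with Benjamini-Hochberg adjustment over the 15734 genes, and a call needed a fold of at least 2 beside an adjusted p under 0.05. The test compares these libraries and covers counting error only: with 1 library on each side there is no measure of spread between animals. Of the 10 genes 1 was called, Inhbb, while 3.39% of all genes tested were called. In replicate 2, 1.75% of genes were called higher and 1.64% lower. In bulk tissue, fewer cells of a type and less RNA per cell cannot be told apart.

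Inhbb was 2.88-fold lower in replicate 2, a log2 ratio of -1.53 with a 95% counting interval of -2.73 to -0.49 (exact binomial test, Benjamini-Hochberg adjusted p = 0.00892). The call rests on 25 against 11 counts. Inhba was 1.98-fold higher in replicate 2 and missed the fold threshold (log2 ratio 0.99, interval 0.51 to 1.5). Its TPM differed more than its scaled counts, and its effective length, by which TPM divides, was 3854 bases in replicate 1 and 3159 bases in replicate 2. Acvr2b was lower in replicate 2 by 1.84-fold (log2 ratio -0.88, interval -1.12 to -0.64), and Acvr1b by 1.45-fold (log2 ratio -0.54, interval -0.64 to -0.44). Both lay under 2-fold and were not called.

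Mstn and Fst did not pass the test at any fold with TMM scaling. The log2 ratio was -0.03 for Mstn (interval -0.14 to 0.08) and 0.06 for Fst (interval -0.14 to 0.27). These intervals cover counting error only, and the sign for Mstn depends on the scaling: with the sum of spike-in counts its ratio was 0.20 (exact binomial test, Benjamini-Hochberg adjusted p = 0.0011). With the same scaling the ratio of Fst was 0.29 (exact binomial test, Benjamini-Hochberg adjusted p = 0.0126). For Fstl3 the ratio was 0.12, with a wider interval of -0.48 to 0.74 that its few counts allow. The remaining genes had ratios of 0.40 for Fstl1, 0.46 for Gdf11 and 0.19 for Acvr2a. Without the fold threshold, 7 of the 10 genes had an adjusted p under 0.05 (4 higher and 3 lower in replicate 2), as did 31.5% of all genes tested. The median log2 ratio was 0.09 over the 10 genes and 0.00 over all genes tested, whose 5th and 95th percentiles were -0.63 and 0.74. Inhba, Inhbb and Acvr2b lay outside that range.

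**Figure D2:**
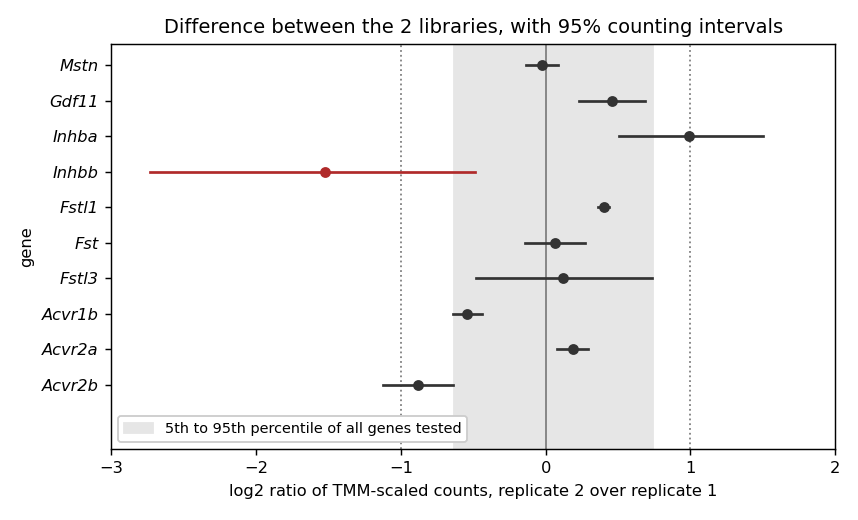
Log2 ratio of TMM-scaled counts, replicate 2 over replicate 1, for each gene with its 95% counting interval as a line; the called gene is red, dotted lines mark 2-fold and the grey band runs from -0.63 to 0.74, the 5th to 95th percentile of all genes tested. Mstn sits at -0.03 and Fst at 0.06, Inhbb at -1.53 and Inhba at 0.99.

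Markers of other cell types also differed between the libraries, and their part in the ratios above was not tested. Fibro-adipogenic markers, which label connective-tissue cells, summed to 3005 and 4751 TPM, of which the collagen genes Col1a1, Col3a1 and Col1a2 made up most, and 0 were called. In scaled counts 7 of the 10 markers had a log2 ratio above 0, with a median of 0.18. Tendon markers summed to 164 and 231 TPM, with 6 of 6 above 0, a median of 0.46 and 0 called. Among all genes tested 7909 of 15734 were above 0. Of the 10 genes followed, 6 had a ratio of the same sign as both medians, Fstl1 among them. Schwann cell markers summed to 259 and 679 TPM (3 of 6 called higher), mural and smooth muscle markers to 271 and 460 TPM (1 of 6 called higher, Acta2, and a list median of 0.00) and erythroid markers to 2947 and 1495 TPM (5 of 5 called lower). Satellite cell markers summed to 106 and 129 TPM, macrophage markers to 53.4 and 62.8 TPM, endothelial markers to 194 and 187 TPM and adipocyte markers to 169 and 135 TPM, with 0 called in each. The lower adipocyte sum rests on Fabp4 (159 and 122 TPM), and the median log2 ratio of that list was 0.04. The median log2 ratio of the 8 fibre markers was -0.13.

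Transcripts were compared by the deposited isoform percent, the share of a gene's TPM given to each transcript. Gdf11, Inhbb and Acvr1b have 1 annotated transcript each. Mstn-201, which encodes the full precursor of 376 codons, took 100% of Mstn in both libraries. Mstn-202, annotated with 189 codons, was assigned 0 counts in both quantifications. Its deposited intervals still reached up to 0.79 TPM in replicate 1 and 0.50 TPM in replicate 2. Acvr2a-201 took 100% of Acvr2a in both libraries. The direct quantification gave the non-coding Acvr2a-202 42.6 and 44.3 counts, which made up 17.1% and 12.6% of the gene's TPM there. The coding transcript of Fstl1 took 90.5% and 96.9% of that gene, and most of the remainder (9.04% and 2.70% of the gene) lay on a 298-base non-coding transcript with 0 counts in the direct quantification.

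Both forms of follistatin were assigned reads. Fst-202, the short form, held 38.4% and 49.0% of Fst, and Fst-205, a long form, held 37.5% and 39.9%. Fst-201, the other long form, held 0% and 1.87%. The retained-intron transcript Fst-203 held 23.2% and 7.80% here and 0 counts in the direct quantification. Among the short and long coding forms, the short form held 50.6% and 54.0% of TPM (52.3 ± 2.39%, SD, n = 2) in the transcript tables and 38.0% and 45.0% (41.5 ± 4.95%) in the direct quantification. By TPM, neither form was the larger in every library and quantification. By assigned counts, before division by length, the short form held 73.4% and 75.4%, and 64.8% and 68.7% in the direct quantification. Fst-202 has 2833 bases and Fst-205 has 1113. Beyond the coding ends printed above, the forms differ in their 3′ and 5′ ends. Of Fst-202, 982 bases (34.7%), mainly at the 3′ end, lie in no exon of the other 2. Fst-201 and Fst-205 have 0 such bases. Fst-205 begins at its first coding base, 365 bases from the gene start, while Fst-202 begins at base 0 and Fst-201 at base 2. The split therefore leans on how reads in the 3′ and 5′ ends are shared out. Reads across the exon 5 to exon 6 junctions were not analysed here.

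Acvr2b-205, which lacks the 72-base block, was the main transcript of Acvr2b. It held 70.3% and 68.9% of the gene, and 75.4% and 87.2% of its 3 coding transcripts (81.3 ± 8.35%, SD, n = 2). In the direct quantification its share of those 3 was 64.4% and 75%, so it led in each library by either quantification. Acvr2b-202, with both blocks, held 10.6% and 4.17%, and Acvr2b-201 held 12.5% and 6.03%. In the direct quantification they held 23.5% and 14.8%, and 10.03% and 4.29%, so their order depends on the quantification. The retained-intron transcript Acvr2b-203 held 0% and 14% (0% and 20.5% in the direct quantification). Of the bases of Acvr2b-205, 1480 (46.6%) lie in neither of the other 2, and all of these are in its longer 3′ end. The share therefore does not count reads over the block alone.

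The transcript splits of Inhba and Fstl3 rest on few counts. Inhba-202 held 50.1% and 64.4% of Inhba and Inhba-201 the rest, and both encode the same 424 codons. The coding transcript of Fstl3 held 100% and 60.6% of that gene, and a non-coding transcript held 0% and 39.4%. In the direct quantification the coding shares were 81.1% and 84.9%. Exons of Fstl3 share 1157 bases with Prss57 on the opposite strand, a gene with 0 and 1 counts.

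**Figure D3:**
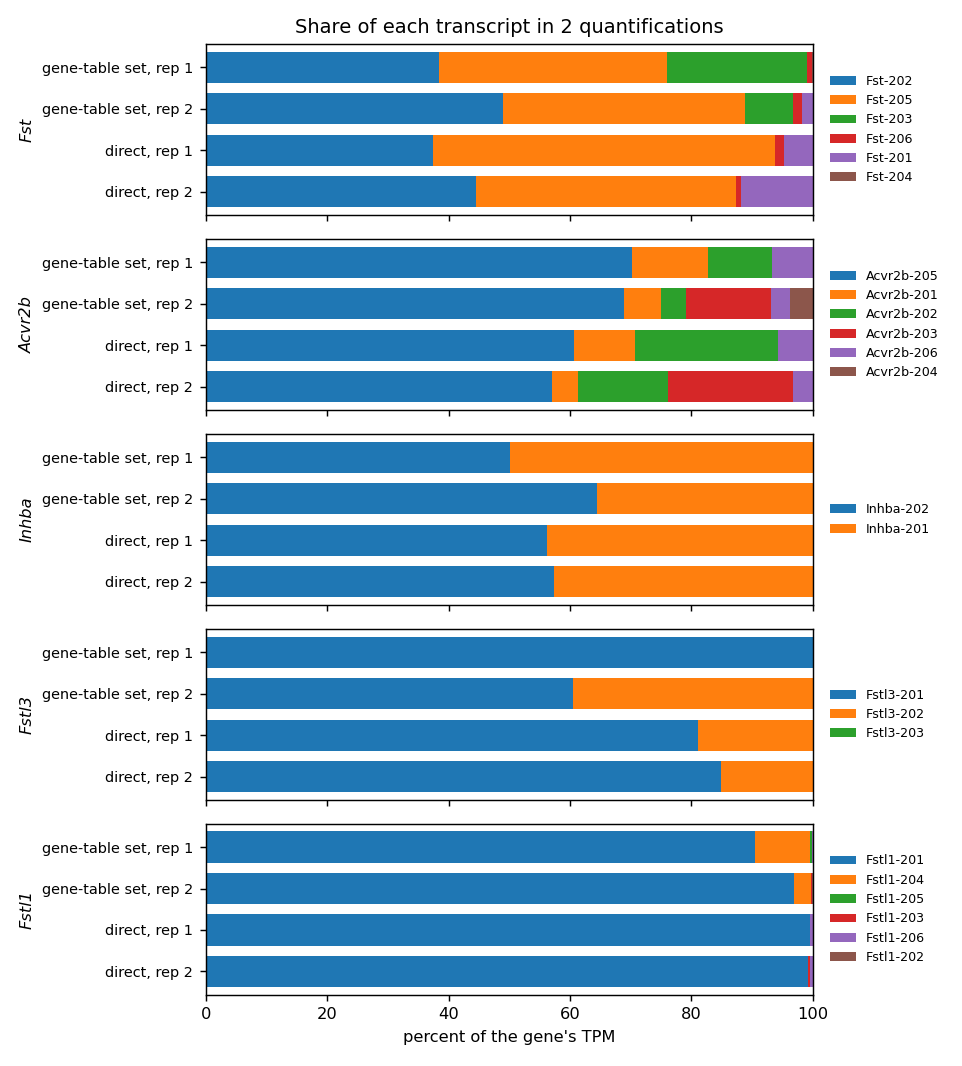
Percent of each gene's TPM by transcript for Fst, Acvr2b, Inhba, Fstl3 and Fstl1, in replicates 1 and 2, for the transcript tables of the gene-table set and for the direct quantification. Acvr2b-205 is the widest bar of Acvr2b in all 4 rows, at 70.3% and 68.9% in the gene-table set, while the widest bar of Fst is Fst-202 in 3 rows and Fst-205 in the row of replicate 1 in the direct quantification.

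**Figure D4:**
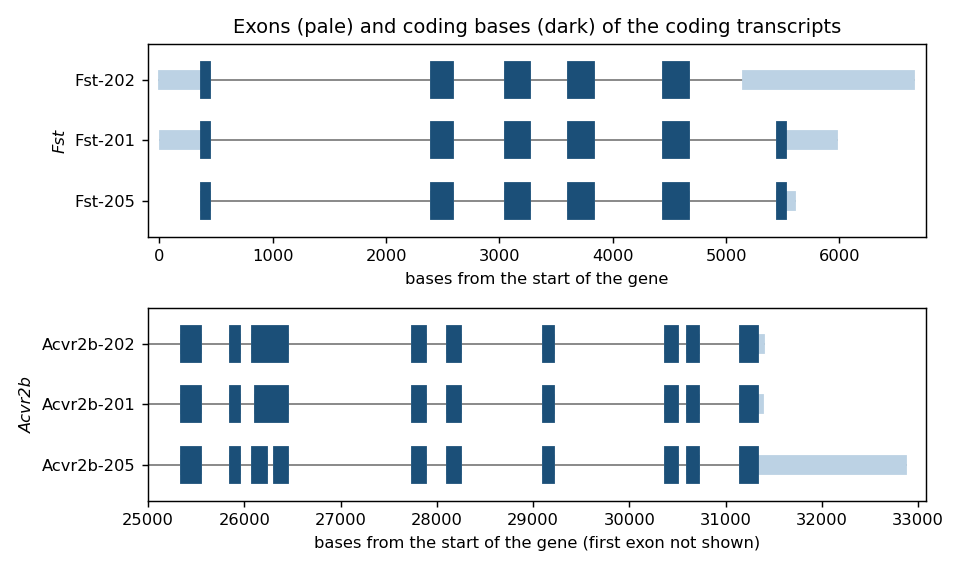
Exons (pale) and coding bases (dark) of the 3 coding transcripts of Acvr2b and of 3 of the 4 of Fst, without Fst-204 (0.14 and 0 counts), by distance in bases from the start of the gene, without the first exon of Acvr2b. Fst-202 has a long last exon with no dark part visible, and Acvr2b-205 is split where the 72-base block is missing and has the longest 3′ end.

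The wider pathway was taken from 7 lists of other genes, of which 83 of 84 symbols were measured; Ctgf had no row under that symbol, and its current symbol Ccn2 was used. At 1 TPM or more in each library were 61 of the 83, and 73 had counts enough to be tested. Of these 0 were called higher and 2 lower in replicate 2, while 1.75% of all genes tested were called higher and 1.64% lower. The median log2 ratio of the pathway genes was -0.02, against 0.00 over all genes tested.

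Other ligands of the family were mostly low: 8 of 18 stood at 1 TPM or more in each library, and of 11 tested 0 were called. Tgfb3 (11.4 and 15.5 TPM), Tgfb2 (6.86 and 11.6 TPM) and Tgfb1 (6.6 and 6.71 TPM), the 3 TGF-beta isoforms, stood highest. Mstn exceeded each of them in both libraries by TPM. Of other receptors and co-receptors 10 of 14 reached 1 TPM, with 0 of 12 called. The highest were Bmpr1a, a BMP type I receptor (30.1 and 34.1 TPM), the endothelial co-receptor Eng (22.0 and 22.8 TPM) and Tgfbr2, the TGF-beta type II receptor (13.9 and 17.8 TPM). Tgfbr1 stood at 9.36 and 9.10 TPM and Acvr1c at 0.33 and 0.46 TPM.

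Extracellular binders and antagonists held the highest levels among the listed modulators, with 11 of 15 at 1 TPM or more in both libraries and 0 of 14 called. Dcn (190 and 242 TPM) and Bgn (79.4 and 115 TPM) encode matrix proteoglycans that bind TGF-beta family ligands, and decorin also binds myostatin. Hspa5, a chaperone of the endoplasmic reticulum, stood at 82.3 and 101 TPM. The selective myostatin and GDF11 antagonists were low: Wfikkn2 stood at 1.18 and 1.31 TPM and Wfikkn1 at 0.16 and 0.24 TPM, and the intervals of this pair stayed apart in both libraries. Among ligand-processing proteases, 5 of 7 reached 1 TPM and 0 of 7 were called. Furin (23.6 and 24.1 TPM) and Pcsk6 (15.7 and 19.3 TPM) belong to the convertases that cut family precursors, and Bmp1 (13.6 and 19.4 TPM) to the proteases that free myostatin from its propeptide.

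Of the SMADs, 7 of 8 reached 1 TPM and 0 of 8 were called. Smad4, the shared partner, stood at 19.1 and 21.1 TPM, Smad3, which carries the myostatin signal, at 16.5 and 19.6 TPM, and Smad5, of the BMP branch, at 9.55 and 11.96 TPM. All 10 SMAD regulators reached 1 TPM and 0 of 10 were called. Ppm1a, a phosphatase of SMADs (75.4 and 78.2 TPM), Usp15, a deubiquitinase (61.6 and 75.3 TPM), and the corepressor Ski (18.7 and 25.2 TPM) led that list. No gene of either list was called, and their median log2 ratios were -0.01 and -0.02.

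The transcriptional targets were the list with calls. Of 11 measured, 10 reached 1 TPM, and 2 of 11 tested were called, both lower in replicate 2, with a list median of -0.43. The share called lower over all genes tested was 1.64%. Fbxo32, which encodes the muscle ubiquitin ligase atrogin-1, stood at 24.4 TPM in replicate 1 and 8.00 TPM in replicate 2. Its log2 ratio was -1.78 (95% counting interval -1.86 to -1.70). Ccn2, a matricellular growth factor gene, stood at 27.3 and 9.86 TPM, with a log2 ratio of -1.68 (interval -1.81 to -1.55). Trim63, which encodes the ubiquitin ligase MuRF1, stood at 78.5 and 50.2 TPM with a log2 ratio of -0.81, and was under 2-fold. Col1a1, a collagen gene and also a fibro-adipogenic marker, stood highest at 1128 and 1958 TPM, with a log2 ratio of 0.63. Of the 11 genes of the list 2 had a log2 ratio above 0, Col1a1 among them, against 7909 of 15734 genes tested. The genes of the list respond to many signals other than myostatin.

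**Figure D5:**
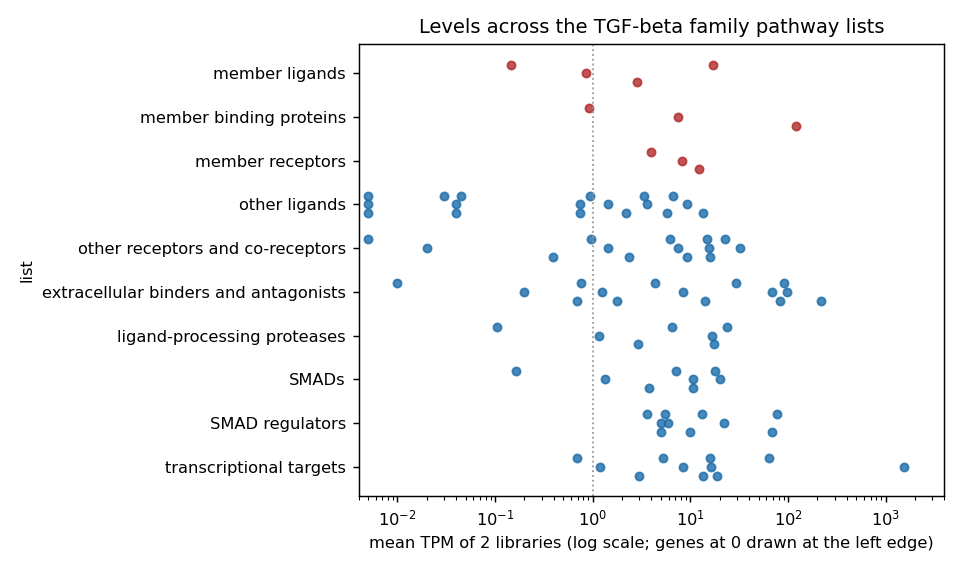
Mean TPM of the libraries on a log axis for each of the 10 genes (red, by role) and for the other pathway genes (blue, by list), with 1 TPM dotted and genes at 0 drawn at the left edge. All 10 SMAD regulators lie right of the dotted line, while 8 of 18 other ligands reached 1 TPM in both libraries.

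The 3 protein-coding genes whose levels were most like those of Mstn, by Euclidean distance of log2(TPM + 1) over the 2 libraries, were Tet3 (16.2 and 17.9 TPM, distance 0.0159), Ufsp1 (16.3 and 17.7 TPM, distance 0.0187) and Afg3l1 (15.9 and 17.7 TPM, distance 0.0203). With 2 libraries of 1 group this measure is closeness in level, not a shared pattern.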

How the data were processed

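Total RNA-seq of 2 gastrocnemius libraries was analysed from deposited tables on mm10 with GENCODE M21. Aligner, quantifiers and the level of the intervals: not given in the sources used here. Per the file headers, gene tables and their transcript tables give expected counts, TPM with a posterior mean, interval bounds (used as a signal on the TPM scale) and the posterior SD of each count (a score, in counts). The authors also deposited each transcript's isoform percent. Another deposited table per library has estimated counts and TPM of transcripts, made by the authors directly from the reads and summed here per gene. Rows named by a number and a phiX row (26249 in all, with 2 and 0 counts) were left out. CAST/EiJ alleles were quantified on a C57BL/6J reference, and reads lost that way were not measured.

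The 10 genes, the pathway and marker lists and the rule for named genes were chosen with earlier results of these data known. The text names all 10, the 3 most abundant genes of each pathway list, called genes, genes of the 11 pairs and the 3 genes nearest to Mstn. Smad2 is named as background, and single cell type markers were named after their values were seen.

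Expected counts were rounded. Gene counts summed to 35591969 and 42105815, spike-ins to 285877 and 317175. Library sizes were scaled by TMM in edgeR 4.0.16 (factors 0.954 and 1.05). Replicates were compared by exact binomial tests, two-sided (scipy 1.17.1), over genes with a summed count of at least 20, with Benjamini-Hochberg adjustment, Clopper-Pearson 95% intervals and a prior count of 0.5 in the ratios. With 1 library a side, edgeR's quasi-likelihood fit leaves no degrees of freedom for its error. Intervals cover counting error only, and reads without molecular identifiers are not independent molecules. The script was tested on simulated data. Alternatives were DESeq2 1.42.0 size factors, library size, spike-ins, no count filter, a 1.5-fold threshold, posterior mean TPM, CPM, TPM over nuclear coding genes, the direct quantification, other TPM minimums and each library left out. R 4.3.3, Python 3.11.15, pandas 2.3.3 and numpy 2.4.6 were used. Sequences and 31-base words come from GENCODE M21 transcripts, and words were compared in the same direction only.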

Additional observations from a re-analysis of the deposited data

How the results depend on the processing

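No paired analysis was possible because the series has 1 group, and the replicate numbers are the comparison. Of the 10 genes, 1 (Inhbb) was called between the libraries. That count was 1 with DESeq2 size factors, without the count filter and in the direct quantification, 2 (Inhba and Inhbb) with library size only and 2 (the same genes) with the sum of spike-in counts, and 3 (with Acvr2b) at 1.5-fold, where 8.07% of all genes were called. Library size only and spike-ins moved the median log2 ratio of all genes to 0.14 and 0.23, and the share of calls that were higher in replicate 2 from 51.7% to 67.8% and 78.7%. The log2 ratio of Mstn turned from -0.03 to 0.11 with library size only, 0.20 with spike-ins and 0.012 in the direct quantification, and that of Fstl3 from 0.12 to -0.012 in the direct quantification. The number of genes at 1 TPM or more was 7, and lay between 7 and 9 under the alternatives and when a library was left out. The number of ordered pairs was 10, and 10 to 11 with a library left out. Leaving a library out cannot lower this count or that of genes at 1 TPM, because the main counts need both libraries. The count of ordered pairs could not be had for the direct quantification or CPM, which carry no intervals. The order of mean levels held in all 11 pairs under the 6 alternatives run. Of these, only the direct quantification, posterior mean TPM and CPM could have changed it. TPM over nuclear coding genes scales all genes of a library alike. Leaving a library out cannot change an order that is the same in both libraries, as it was in all 11 pairs. The direct quantification moved the mean level of 7 of the 10 genes, and 6 of 13 transcript shares, by more than the SD of the 2 libraries. The posterior mean TPM moved 1 of 10 levels that far. CPM and TPM over nuclear coding genes change the unit and moved all 10. With 2 libraries, leaving 1 out cannot move a mean past the SD, so those settings say nothing of stability here. Depth limits Inhbb, Fstl3 and Inhba most, at 11 to 127 counts a library.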
